A study of Mus musculus with 18 samples.

Results

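CD8 and the T cell receptor complex were measured through 10 genes, which are 10 of the 56748 gene IDs counted in the series. They were taken by gene symbol in GENCODE M21, and each symbol matched a single ID. Cd8a and Cd8b1 encode the alpha and beta chains of CD8, the co-receptor. Cd3d, Cd3e, Cd3g and Cd247 encode the signalling chains CD3 delta, epsilon, gamma and zeta. Lck and Zap70 encode the kinases that act first, Lat encodes their membrane adaptor, and Ptprc encodes the phosphatase CD45. The samples were 18 poly-A RNA-seq libraries, 6 for each of 3 diets, made from flow-sorted splenic CD8 T cells of mice labelled WT. SW mice had 6 weeks of high fat diet and then 6 weeks of normal diet, HFD mice had high fat diet for 12 weeks, and ND mice had normal diet for 12 weeks. The diets lasted 12 weeks in all in every group, and no group carried an engineered allele by its label.

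A CD8 T cell recognises a peptide held by an MHC class I molecule through its alpha and beta receptor chains, which have no signalling parts of their own. The CD3 chains and the zeta chain carry the tyrosine motifs that signal, and CD8 binds MHC class I and brings Lck to them. Lck, whose own activity is set by CD45 and by the kinase Csk, phosphorylates those motifs. ZAP-70 then docks on the zeta and CD3 chains and phosphorylates LAT, on which the downstream enzymes assemble. The CD3 epsilon chain pairs with either delta or gamma, so each receptor holds more epsilon than either partner.

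None of the 10 genes was called in SW or HFD cells against any other diet. Levels of 9 of the 10 lay within narrow intervals in all 3 comparisons, the farthest bound being 1.16-fold for Lck in HFD against ND. Cd3e was the exception in the SW comparisons, where its intervals were not unusually wide but left out 0, with a farthest bound of 1.22-fold. It had 456 to 553 CPM (counts scaled to library size with TMM factors) in SW, 405 to 488 in HFD and 423 to 468 in ND, with a log2 difference between SW and ND of 0.18 ± 0.05 (SE) that missed the threshold after adjustment (edgeR adjusted p = 0.288). In these bulk samples fewer cells of a type and less RNA per cell cannot be told apart.

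The 3 CD3 genes lie in a cluster on chromosome 9 (GRCm38). Cd3g (ENSMUSG00000002033; 9, 44969572 to 44980431, minus strand) and Cd3d (ENSMUSG00000032094; 9, 44981786 to 44987339, plus strand) stand head to head, with 1355 bases between their starts. The start of Cd3e (ENSMUSG00000032093; 9, 44998740 to 45009627, minus strand) is 27841 bases from that of Cd3d. The promoter windows of these genes are shown because the levels of Cd3d and Cd3g differed together between sets of libraries, while Cd3e differed in another way. That was not particular to the pair, as Lat, Cd8a and Cd247 on other chromosomes differed in the same direction. A link between the windows and the levels was not tested. The windows are RefSeq sequences (GRCm38.p6) on the strand of the gene, from 250 bases before to 50 bases after the start. Capitals mark the letters of 4 motifs found on either strand, with no overlap between them in these windows. The ETS core was searched as AGGAAG. The RUNX core was searched as TGTGGT, the TATA box as TATAAA and the GC box as GGGCGG.
Cd3d, chr9:44981536-44981835, plus strand: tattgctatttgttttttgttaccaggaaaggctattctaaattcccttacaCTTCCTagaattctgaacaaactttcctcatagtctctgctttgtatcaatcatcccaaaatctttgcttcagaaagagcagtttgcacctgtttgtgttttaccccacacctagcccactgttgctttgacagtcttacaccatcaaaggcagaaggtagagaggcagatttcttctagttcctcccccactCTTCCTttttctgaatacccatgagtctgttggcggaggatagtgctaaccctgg
Cd3g, chr9:44980382-44980681, minus strand: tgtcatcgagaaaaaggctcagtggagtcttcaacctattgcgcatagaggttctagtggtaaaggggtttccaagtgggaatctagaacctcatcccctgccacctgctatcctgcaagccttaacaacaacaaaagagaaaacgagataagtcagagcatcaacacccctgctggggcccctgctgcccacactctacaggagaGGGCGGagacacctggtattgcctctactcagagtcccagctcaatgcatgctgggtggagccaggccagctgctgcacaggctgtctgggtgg
Cd3e, chr9:45009562-45009861, minus strand: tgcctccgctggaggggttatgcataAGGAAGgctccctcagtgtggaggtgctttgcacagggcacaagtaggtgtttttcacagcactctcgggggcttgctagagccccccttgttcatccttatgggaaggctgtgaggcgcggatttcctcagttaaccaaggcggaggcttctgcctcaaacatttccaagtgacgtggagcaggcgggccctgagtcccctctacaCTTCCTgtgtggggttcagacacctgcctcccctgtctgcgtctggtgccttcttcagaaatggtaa

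The Cd3d and Cd3e windows each held the ETS letters at 2 positions and the Cd3g window held none, having the GC box letters instead. The ETS letters were found in 35.4% of all 32851 promoter windows of this length, and the GC box letters in 35.7%. Of the 9 members with a window in the table, 7 had the ETS letters in at least 1 window, 3 had the RUNX letters, 2 the GC box letters and 1 the TATA box letters. RUNX letters occurred in 16.8% of all windows and TATA box letters in 13.6%. These shares are per window, while the member counts are per gene, and Lck, Zap70 and Ptprc had more than 1 window. The counts and shares are thus unlike measures. Cd8b1 had no entry. These matches are descriptions of the letters only.

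The other genes are spread over the genome. Cd8b1 (ENSMUSG00000053044; 6, 71322788 to 71337494) and Cd8a (ENSMUSG00000053977; 6, 71373427 to 71379173) are neighbours on the plus strand of chromosome 6, with starts 50639 bases apart. Zap70 (ENSMUSG00000026117; 1, 36761798 to 36782818), Ptprc (ENSMUSG00000026395; 1, 138062861 to 138175708) and Cd247 (ENSMUSG00000005763; 1, 165788681 to 165877277) are far apart on chromosome 1. Lck (ENSMUSG00000000409) lies on chromosome 4, 129548344 to 129573641, and Lat (ENSMUSG00000030742) on chromosome 7, 126363824 to 126369570. Genes on the other strand overlap Cd3e, Cd247 and Zap70, and with no strand setting stated, reads of such pairs cannot be told apart. Over the 18 libraries Cd3e had 117398 counts, against 1983 for its antisense neighbour Gm48719. Cd247 had 75166 counts, against 10082 for Pou2f1, the most counted of its antisense neighbours.

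Total counts ran from 11947339 to 16398340 per library. The 10 genes together took 0.886% ± 0.0221 of the counts in SW, 0.882% ± 0.0127 in HFD and 0.871% ± 0.0141 in ND (SD, n = 6 each). The fewest counts behind any value were 3228, for Zap70, and the largest counting error of a single value was 1.76%. Earlier results of these data set replicates 1 and 2 of every diet apart from replicates 3 to 6, and the labels do not say what the numbers mark. Nothing in the labels ties each library to its own mouse, so p-values measure the spread between these libraries, which may be technical in part.

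Markers showed the sorted cell type and small amounts of others. Cd4 was at 0.0800 to 1.32 CPM in the 18 libraries, against 1369 to 1635 CPM for Cd8a. By diet Cd4 averaged 0.509 CPM in SW, 0.834 in HFD and 0.274 in ND. CD4 T cells use the members other than the CD8 genes too, and the sums of their list are given with the processing. Of the B cell markers Pax5 was at 0 in 6 libraries, while the summed level of 7 B cell genes, nearly all of it Ighm, was 506 to 617 CPM in SW, 524 to 680 in HFD and 480 to 533 in ND. Summed erythroid markers were at 29.1 to 83.4 CPM in SW, 11.4 to 331 in HFD and 14.1 to 39.8 in ND. The 7 monocyte, macrophage and neutrophil genes summed to 9.19 to 18.7 CPM in SW, 14.8 to 22.9 in HFD and 8.26 to 14.2 in ND, with Cd14 at 0 in 8 libraries. Of the natural killer and gamma delta T cell lists, which bear on the CD3, zeta, Lck, ZAP-70 and CD45 genes because those cells use them too, the sums stayed at 23.0 to 40.0 CPM and 9.15 to 17.5 CPM. The lists of B cells, of monocytes, macrophages and neutrophils and of dendritic cells bear on the CD45 gene as well. The 5 dendritic cell genes, cells in some of which Cd8a is also active, summed to 51.6 to 84.1 CPM in SW, 68.8 to 135 in HFD and 48.6 to 111 in ND. Their part in the values of the 10 genes was not tested.

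Per length, the co-receptor genes were the most abundant and the zeta chain gene the least. The authors' FPKM values, which divide counts by gene length and library size, were used to compare genes with each other. Cd8b1 averaged 893 ± 34.6 FPKM (SD, 18 libraries) and Cd8a 426 ± 18.1, followed by Lck at 359 ± 22.4 and Cd3d at 309 ± 19.5. Lat averaged 226 ± 9.81, Cd3g 174 ± 9.97, Ptprc 129 ± 6.75, Cd3e 117 ± 9.08, Zap70 98.1 ± 4.43 and Cd247 57.8 ± 3.12. Cd8b1 stood at rank 56 of the 13690 tested genes in FPKM and Cd247 at rank 834.

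Some neighbours in this order were clearly apart and others were not. The ranges over 18 libraries did not overlap between Cd8b1 and Cd8a, Cd3d and Lat, Lat and Cd3g, Cd3g and Ptprc, or Zap70 and Cd247. They overlapped between Cd8a and Lck, Lck and Cd3d, Ptprc and Cd3e, and Cd3e and Zap70. Within each library, however, Cd8a was above Lck and Cd3e above Zap70 in 18 of 18. Lck was above Cd3d in 17 of 18 libraries, and Ptprc was above Cd3e in 16 of 18. FPKM divides by the length of all annotated exons of a gene together, 18313 bases for Ptprc and 1483 for Cd8b1, so this order depends on those annotated lengths.

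**Figure D1:**
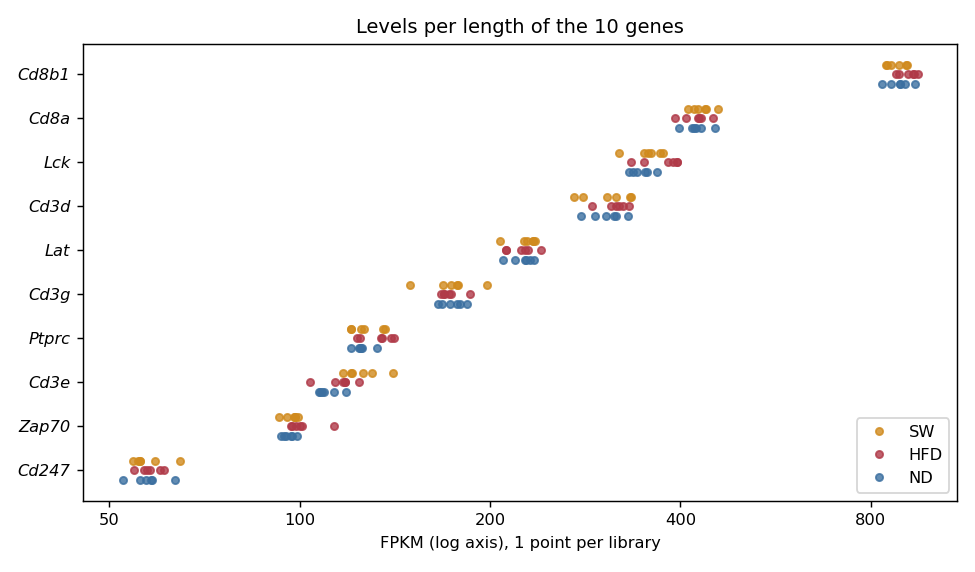
Level per length of each of the 10 genes, in FPKM on a log axis, with 1 point per library and the diets SW, HFD and ND in rows. Cd8b1 lies alone at 833 to 949 FPKM and Cd247 alone at 52.5 to 64.7, and the diets overlap for every gene.

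The co-receptor genes had like levels on all diets. Cd8a ranged from 1448 to 1635 CPM in SW (median 1510), from 1369 to 1584 in HFD (median 1497) and from 1403 to 1598 in ND (median 1488). The 3 Cd8a ranges overlapped, with the lowest library in HFD and the highest in SW. Cd8b1 ranged from 1203 to 1302 CPM in SW (median 1255), from 1249 to 1367 in HFD (median 1321) and from 1193 to 1347 in ND (median 1278). The diets overlapped for Cd8b1 too, with all 6 SW libraries below the HFD mean of 1309 CPM. The log2 fold change of Cd8a was -0.011 ± 0.05 (SE) in HFD against ND, 0.02 ± 0.05 in SW against ND and 0.04 ± 0.05 in SW against HFD. For Cd8b1 the values were 0.04 ± 0.05, -0.019 ± 0.05 and -0.06 ± 0.05 in the same order of comparisons.

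Of the CD3 chains, Cd3e alone had intervals that left out 0. In SW the Cd3e libraries had 456, 473, 479, 505, 512 and 553 CPM, in HFD 405, 448, 462, 463, 464 and 488 CPM, and in ND 423, 424, 431, 434, 448 and 468 CPM. All SW libraries but the lowest lay above the highest ND library, so the diets overlapped by that library, and 6 of 6 SW libraries were above the ND mean. The log2 fold change in SW against ND was 0.18, with a 95% interval of 0.07 to 0.29, which is 1.05-fold to 1.22-fold (unadjusted p = 0.00176, edgeR adjusted p = 0.288). In SW against HFD it was 0.12, with an interval of 0.02 to 0.23 (edgeR adjusted p = 0.372), and in HFD against ND it was 0.06, with an interval of -0.05 to 0.16. SW against ND and SW against HFD share the SW libraries, and both high fat comparisons share the ND libraries. Without SW 2, the highest library, the Cd3e difference of SW from ND was 0.15. Within replicates 3 to 6 it was 0.13 (edgeR adjusted p = 0.532), and within replicates 1 and 2 it was 0.27 (edgeR adjusted p = 0.984). The difference of SW from HFD was 0.07 within replicates 3 to 6 and 0.24 within replicates 1 and 2.

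The partner chains did not show that difference. Cd3d, which pairs with CD3 epsilon, had 477 to 585 CPM in SW (median 547), 506 to 585 in HFD (median 556) and 489 to 582 in ND (median 545). Cd3g, the other partner, had 474 to 621 CPM in SW (median 553), 524 to 587 in HFD (median 538) and 522 to 582 in ND (median 556). Both were spread most widely in SW, where their ranges took in those of ND. Their fold changes in SW against ND were -0.0018 ± 0.06 (SE) for Cd3d and -0.0076 ± 0.05 for Cd3g on the log2 scale, with intervals of -0.12 to 0.11 and -0.12 to 0.10. Cd247, the zeta chain gene, had 283 to 332 CPM in SW (median 288), 279 to 314 in HFD (median 296) and 270 to 329 in ND (median 297). Its largest log2 fold change was -0.0085, in SW against HFD.

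Among the kinase, adaptor and phosphatase genes, Lck, Zap70 and Ptprc had positive fold changes in HFD against ND that did not pass the test. Lck had 902 to 1053 CPM in SW (median 1012), 940 to 1123 in HFD (median 1092) and 937 to 1041 in ND (median 985). Of the 6 HFD libraries 4 were above every ND library, and the other two lay inside the ND range. The log2 fold change of Lck in HFD against ND was 0.10 ± 0.05 (SE; 95% interval -0.0064 to 0.21; edgeR adjusted p = 0.375), and 5 of 6 HFD libraries were above the ND mean. Zap70 had 267 to 288 CPM in SW (median 284), 278 to 330 in HFD (median 286) and 270 to 287 in ND (median 279). The top of the Zap70 range in HFD was HFD 4 alone, with the next library at 292 CPM. Its fold change in HFD against ND was 0.07 ± 0.05, and it was 0.03 without HFD 4.

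Lat and Ptprc completed the group. Lat had 555 to 635 CPM in SW (median 617), 561 to 647 in HFD (median 602) and 560 to 628 in ND (median 611), with log2 fold changes of -0.012 to 0.03 over the comparisons. Ptprc, the most counted of the 10 genes and the longest, had 2125 to 2405 CPM in SW (median 2228), 2171 to 2468 in HFD (median 2377) and 2139 to 2342 in ND (median 2218). In HFD 4 of 6 libraries were above the ND mean, and the log2 fold change was 0.08 ± 0.05 (SE; edgeR adjusted p = 0.499). Gene counts do not show which of the alternative exons of Ptprc, by which naive and antigen-experienced T cells differ, were used.

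**Figure D2:**
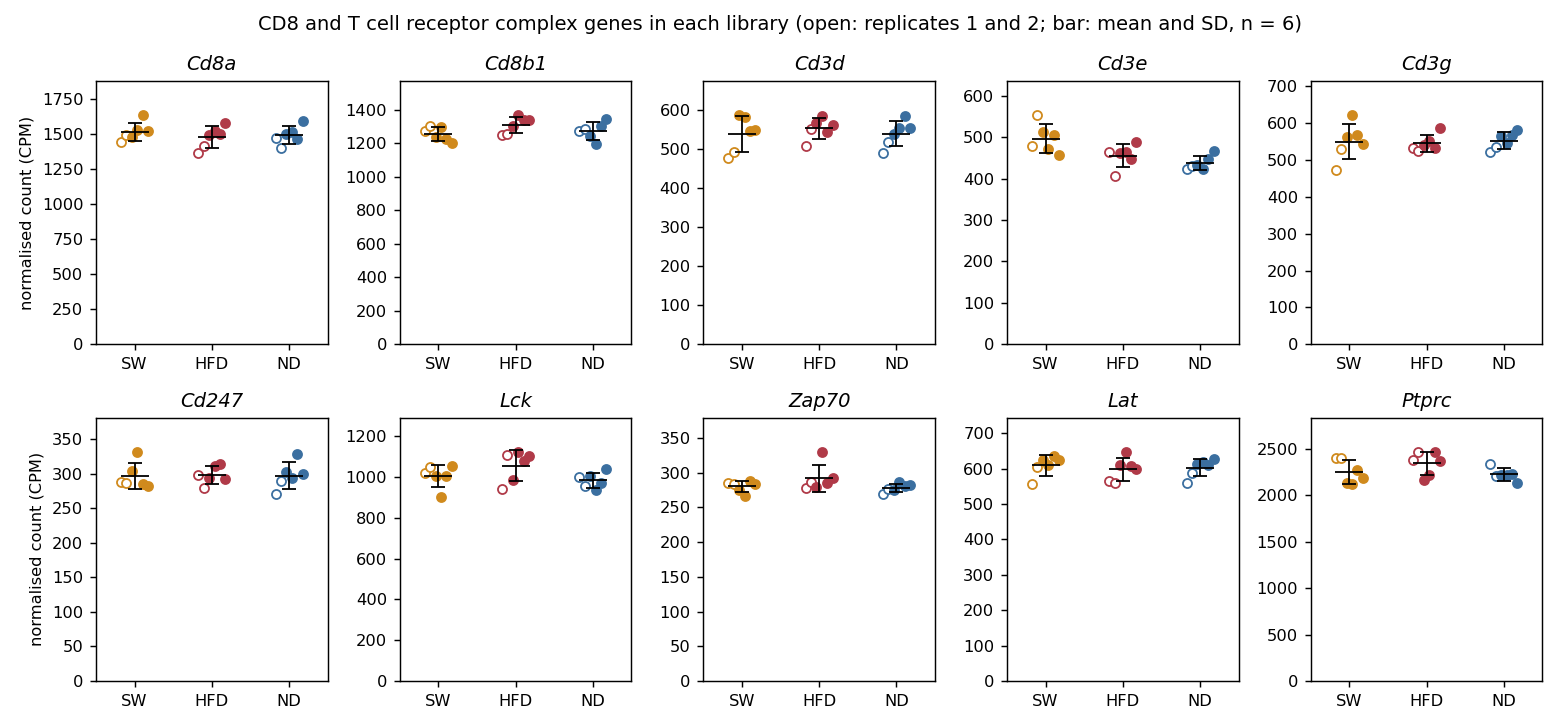
Normalised counts of the 10 genes in CPM, with 1 point per library, a bar for the mean and SD of 6 libraries, and open points for replicates 1 and 2. The axes start at 0, and the Cd3e points in SW run from 456 to 553 CPM, against 405 to 488 in HFD and 423 to 468 in ND, while the other genes overlap more fully.

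Across all genes the same test made calls, so the members can be read against them. In HFD against ND 0 of 10 members were called, against 1.62% of the 13690 tested genes. In SW against ND 0 of 10 were called, against 0.0146% of all genes, and in SW against HFD 0 of 10, against 0.124%. For any difference among the 3 diets edgeR called 0 of 10, against 0.898% of all genes, and 1 member, Cd3e, was at an unadjusted p under 0.05, against 13.3%. At an unadjusted p under 0.05, edgeR had 0, 1 and 1 members in HFD against ND, SW against ND and SW against HFD, and the share of all genes at that level was 14.9%, 6.81% and 11.1%. DESeq2 and limma-voom called 0 of the 10 in each of the 3 comparisons. In the same order, DESeq2 called 3.44%, 0.421% and 0.871% of all genes it gave an adjusted p. The shares with limma-voom were 2.62%, 0.212% and 0.146%. For any diet difference DESeq2 called 1 of the 10, Cd3e (adjusted p = 0.0358), against 3.38% of the 12627 genes it gave an adjusted p. The edgeR adjusted p of Cd3e in that test was 0.154. With 10 genes and such low background rates, a count of 0 is near the background and not a result about these genes.

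No member had groups that did not overlap, while 1.67%, 0.716% and 0.782% of all genes did in HFD against ND, SW against ND and SW against HFD. The median size of the members' log2 fold changes was 0.04 in HFD against ND, against 0.10 over all tested genes and 0.06 over the 2148 tested genes of at least 100 CPM. In SW against ND it was 0.02, against 0.07 and 0.04. In SW against HFD it was 0.05, against 0.09 and 0.05. In HFD against ND 7 of the 10 were above 0, as were 62.2% of the genes of at least 100 CPM. Of the 30 intervals of the 10 genes 28 held 0, the others being the 2 of Cd3e in SW.

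**Figure D3:**
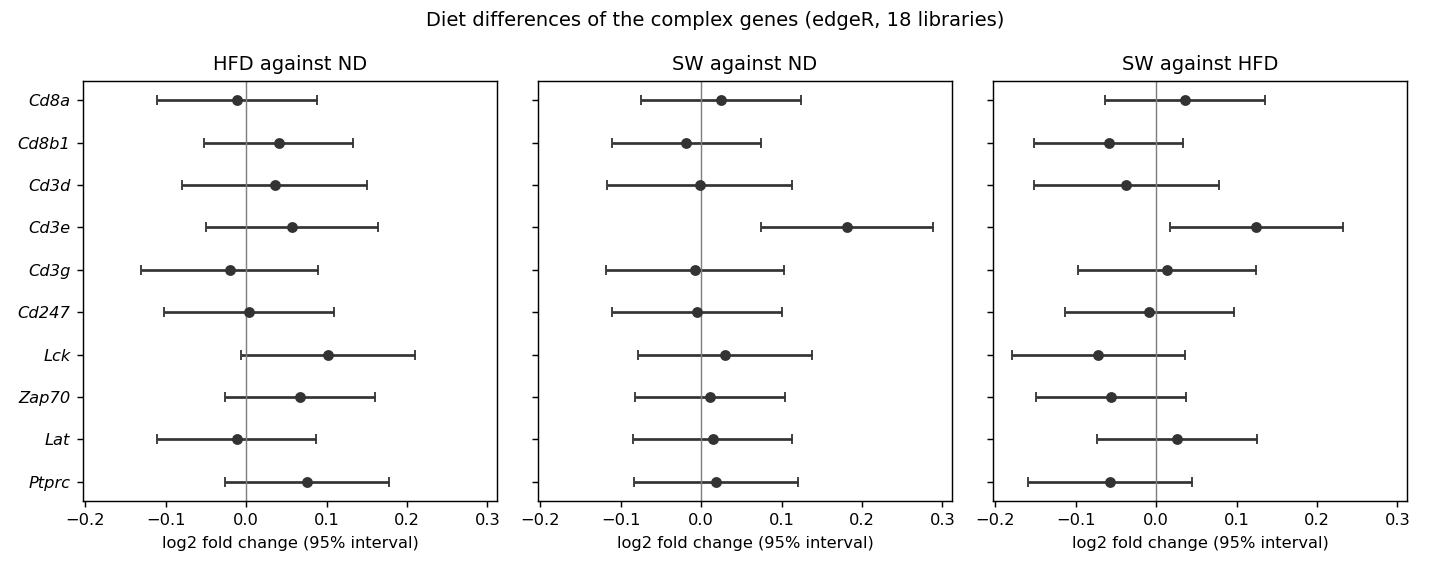
Log2 fold change of each gene with its 95% interval from edgeR, for HFD against ND, SW against ND and SW against HFD. The Cd3e intervals in both SW comparisons lie above 0, at 0.07 to 0.29 and 0.02 to 0.23, and the other 28 intervals cross 0.

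Ratios between genes of the complex were compared within libraries, where the scaling of the library drops out. Cd8a over Cd8b1, the balance of the co-receptor chains, had an FPKM ratio of 0.493 ± 0.0308 in SW, 0.461 ± 0.0123 in HFD and 0.479 ± 0.0253 in ND (SD, n = 6 each). The SW and HFD ranges, 0.463 to 0.543 and 0.447 to 0.483, overlapped, and 6 of 6 SW libraries were above the HFD mean. The log2 difference of SW from HFD was 0.09 (two-sided exact permutation p = 0.0216, adjusted p = 0.0952 over the 12 ratio tests). Lck over Zap70, the kinases that act in turn, had a ratio of 3.66 ± 0.129 in SW, 3.70 ± 0.218 in HFD and 3.61 ± 0.175 in ND. The 3 diets overlapped in this ratio, and the smallest exact permutation p was 0.463 (adjusted p = 0.556).

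Ratios to Cd3e had lower means in SW than on the other diets, without passing the test. Cd247 over Cd3e was 0.459 ± 0.0465 in SW, 0.503 ± 0.0289 in HFD and 0.521 ± 0.0279 in ND (SD, n = 6 each). The log2 difference of SW from ND was -0.18, with 5 of 6 SW libraries below the ND mean (exact permutation p = 0.0238, adjusted p = 0.0952). Cd8a over Cd3e was 3.45 ± 0.277 in SW, 3.66 ± 0.201 in HFD and 3.83 ± 0.139 in ND. Its log2 difference of SW from ND was -0.16, with 6 of 6 SW libraries below the ND mean (exact permutation p = 0.0108, adjusted p = 0.0952). None of the 12 tests passed after adjustment, and both ratios share Cd3e, so they are not separate evidence.

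Within the CD3 cluster, ratios chosen after the values were seen are given without a test. Cd3e over Cd3g was 0.610 to 0.836 in SW (median 0.720), 0.620 to 0.697 in HFD (median 0.674) and 0.615 to 0.649 in ND (median 0.637). It was tightest in ND and widest in SW, where SW 1 at 0.809 and SW 2 at 0.836 were the highest and SW 4 at 0.610 the lowest. Cd3d over Cd3g was 1.67 to 1.87 in SW (median 1.77), 1.71 to 1.91 in HFD (median 1.86) and 1.69 to 1.84 in ND (median 1.73). Cd3e over Cd3d was 0.362 to 0.501 in SW (median 0.401), 0.328 to 0.407 in HFD (median 0.365) and 0.340 to 0.385 in ND (median 0.365). Each of these ratios overlapped between the diets, so overlap was not particular to the head to head pair.

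**Figure D4:**
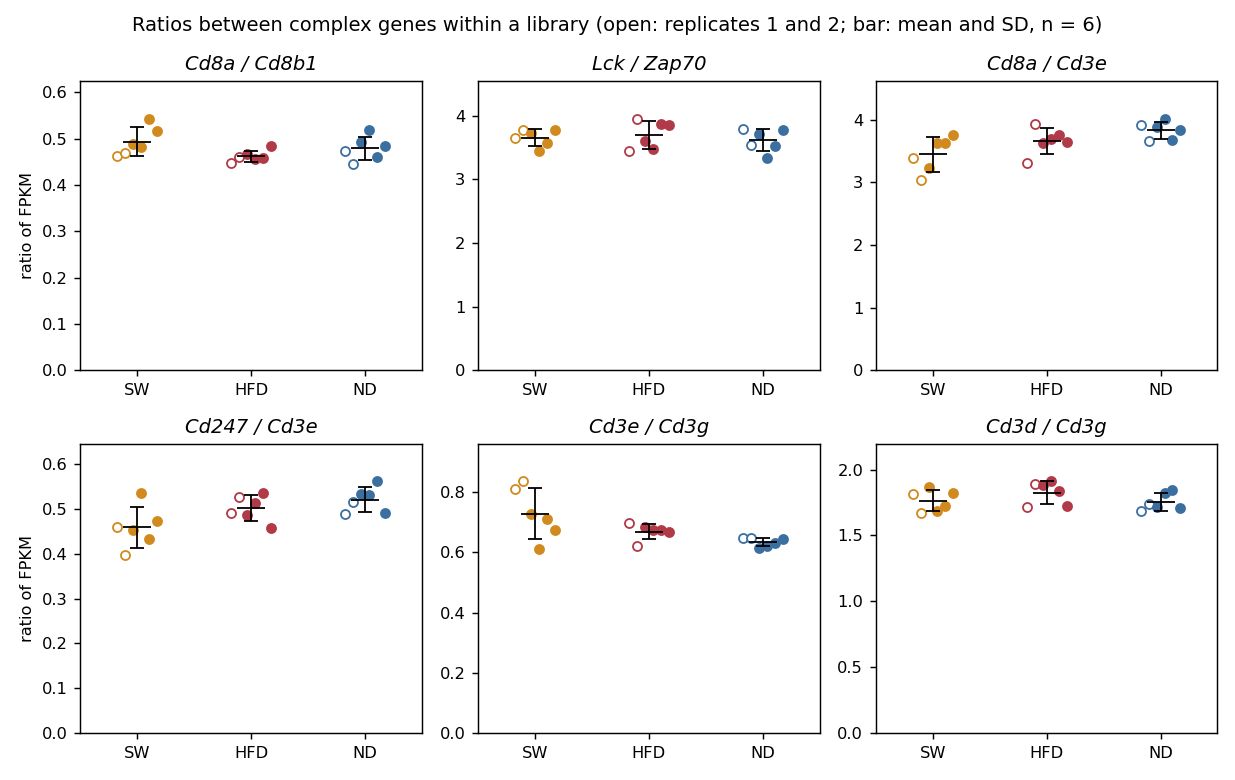
FPKM ratios of gene pairs, 1 point per library, with the mean and SD of 6 libraries and open points for replicates 1 and 2. Cd8a over Cd3e averages 3.45 in SW, 3.66 in HFD and 3.83 in ND, and the Cd3e over Cd3g points of SW spread from 0.610 to 0.836, against 0.615 to 0.649 in ND.

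Spread between libraries of a diet was small for all 10 genes. The SD of log2 CPM within a diet, pooled over the diets, ran from 0.05 for Cd8b1 and 0.06 for Zap70 to 0.09 for Cd3g and 0.10 for Cd3d. The median over all tested genes was 0.17, and over tested genes of at least 100 CPM it was 0.10. All 10 members were below both medians, with Cd3d, at 0.0963, just under the 0.0983 of the abundant genes. Only 0.628% of tested genes had a smaller SD than Cd8b1, and 3.12% of those of at least 100 CPM. For Cd3d these shares were 15.1% and 47.8%. No test was made of this.

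**Figure D5:**
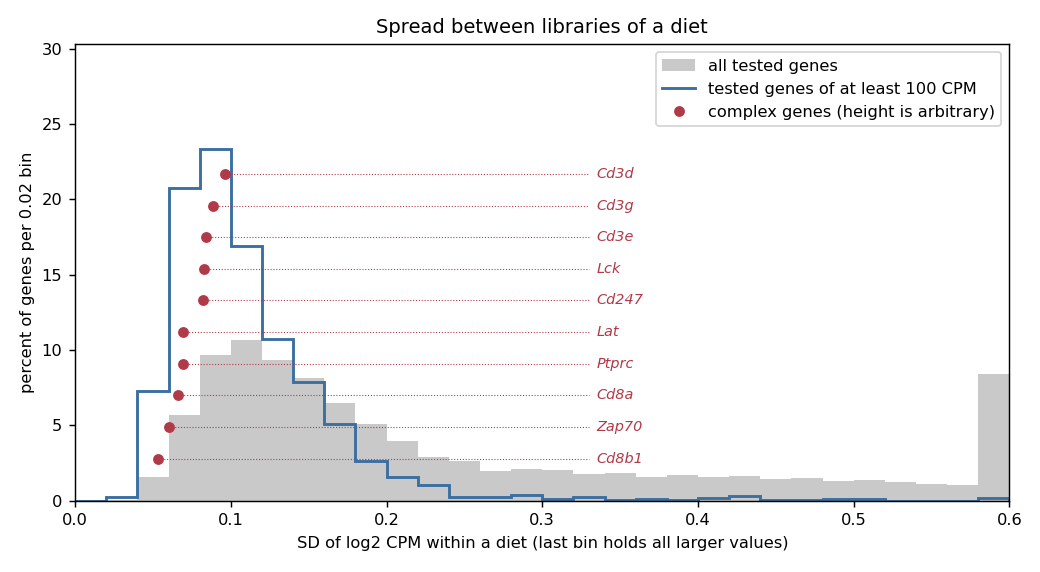
SD of log2 CPM within a diet, as a histogram over all tested genes in grey and over the 2148 tested genes of at least 100 CPM in blue, with the 10 genes as points. All 10 lie at 0.0533 to 0.0963, to the left of the median of 0.175 over all genes.

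Levels were also compared by replicate number. Values of replicates 1 and 2 less those of replicates 3 to 6, with diet in the fit, are given without a test because the split was found in these expression values. The difference was -0.15 on the log2 scale for Cd3d, -0.12 for Cd3g, -0.11 for Lat, -0.09 for Cd8a and -0.09 for Cd247. It was 0.09 for Ptprc and between -0.03 and 0 for Cd3e, Zap70, Cd8b1 and Lck. Cd3d had 477 to 551 CPM in the 6 libraries of replicates 1 and 2, against 538 to 585 in the 12 of replicates 3 to 6, and Cd3g had 474 to 534 against 534 to 621. Cd3e, from the same cluster, had 405 to 553 against 424 to 512, with Cd3e ranges that overlapped widely. The median size of this difference was 0.09 over the members and 0.12 over all tested genes. With the split taken out, the members' SDs ran from 0.0407 for Lat to 0.0873 for Lck. Then 9 of the 10 were below the matching median of the genes of at least 100 CPM, 0.0809, and Lck was above it. All 10 were below the matching median over all tested genes, 0.156.

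Likeness of pattern was measured as the mean absolute difference of log2 CPM over the 18 libraries, after the mean of each gene was removed. Among the members, Cd8a and Lat were the closest, at 0.04, and Cd3d and Ptprc the farthest, at 0.12. Cd3d and Cd3g were at 0.0593 from each other, and each was nearer to Lat, at 0.0515 and 0.0524. Over all tested genes, the nearest to Cd8a were Napg, Dgka and Supt20, at 0.0330, 0.0335 and 0.0361, against a median of 0.155. The nearest to Cd3e were Lef1, Anp32b and Pdcd4, at 0.0581, 0.0635 and 0.0651. Lck was nearest to Sidt1, Gtf2i and Pik3r5, at 0.0388, 0.0419 and 0.0429. Genes of small spread are near each other by this measure whatever they do.

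Other genes of the receptor pathway were taken from 7 lists of 69 genes, of which 68 were tested and Ptprcap had 0 counts in the deposited files. In HFD against ND 1 of the 68 rose, against 0.665% of all genes called higher, and 1 fell, against 0.957%. At an unadjusted p under 0.05 there were 15 of 68, against 14.9% of all tested genes. Fold changes were above 0 in 48 of 68, against 52.4% of all tested genes and 62.2% of those of at least 100 CPM, and the median log2 fold change was 0.07 (0.0081 over all tested genes). Tec, a cytoplasmic tyrosine kinase, rose. It had 33.1 to 47.5 CPM in SW (median 41.0), 42.4 to 54.7 in HFD (median 47.7) and 31.4 to 40.8 in ND (median 36.9). No HFD library overlapped with ND. The log2 fold change was 0.38 ± 0.08 (SE; edgeR adjusted p = 0.0187), and without HFD 2 or ND 3 it was not called, at adjusted p up to 0.0575.

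Bcl10, an adaptor on the route from the receptor to NF-kB, fell in HFD. It had 58.2 to 65.0 CPM in SW (median 61.9), 54.8 to 63.4 in HFD (median 57.6) and 62.9 to 76.9 in ND (median 69.1). The HFD and ND ranges overlapped only between 62.9 and 63.4 CPM. The log2 fold change in HFD against ND was -0.26 ± 0.05 (SE; edgeR adjusted p = 0.0173), and Bcl10 was called in all 18 fits without 1 library. In SW against ND it was -0.18 ± 0.05, which did not pass (edgeR adjusted p = 0.348).

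Cd69, an early activation antigen induced by the receptor, did not pass in HFD against ND (log2 fold change 0.67 ± 0.16, edgeR adjusted p = 0.0505). It had 73.6 to 108 CPM in SW (median 83.4), 72.3 to 169 in HFD (median 147) and 78.3 to 94.7 in ND (median 84.8). HFD 1, at 72.3 CPM, lay below every ND library, and the other 5 HFD libraries lay above all of them. Cd69 was called in 9 of 33 alternatives, and 2 of the 18 fits without 1 library called it. It was not called without HFD 2 (edgeR adjusted p = 0.11) or without HFD 4 (edgeR adjusted p = 0.096). Within replicates 1 and 2 it was not called either (edgeR adjusted p = 0.87). Among the 9 were the fit without HFD 1, the library below ND (log2 fold change 0.80, edgeR adjusted p = 7.65e-05), and that within replicates 3 to 6 (edgeR adjusted p = 0.00297). DESeq2 (adjusted p = 0.00588) and limma-voom (adjusted p = 0.0302) also called it with all 18 libraries. So did edgeR with the split by replicate number as a factor (edgeR adjusted p = 0.0345). That split was found in these expression values, so this call is not separate support. In SW against HFD Cd69 had a fold change of -0.66 ± 0.16 (edgeR adjusted p = 0.138), and it was called in 3 of 33 alternatives. These were the fit without HFD 1 (edgeR adjusted p = 0.00101), that within replicates 3 to 6 (edgeR adjusted p = 0.0338) and DESeq2 with all 18 libraries (adjusted p = 0.0186).

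The next genes were taken by smallest p in HFD against ND and did not pass in the fit with diet alone. Ptpn22, a phosphatase that restrains Lck, had a log2 fold change of 0.20 ± 0.06 (SE; edgeR adjusted p = 0.0612). Cd5, a receptor that dampens signalling, was at 0.16 ± 0.04 (edgeR adjusted p = 0.0659), and the transcription factor Irf4 at 0.58 ± 0.17 (edgeR adjusted p = 0.0756). With the split by replicate number as a factor all 3 were called at like fold changes, with edgeR adjusted p of 0.0218 for Ptpn22, 0.0256 for Cd5 and 0.0332 for Irf4. That fit called 3.91% of all tested genes. The split was found in these expression values, so calls made with it as a factor are not separate support. Of the 18 fits without 1 library 2 called Ptpn22, at edgeR adjusted p of 0.0254 without HFD 1 and 0.0417 without HFD 3. Its HFD levels were lowest in those libraries, at 280 and 278 CPM. In the other fits without 1 library the edgeR adjusted p of Ptpn22 reached 0.151, and within replicates 1 and 2 it was 0.723. Cd5 and Irf4 were called in 0 of those 18 fits. Cd5 had 205 to 227 CPM in SW, 209 to 234 in HFD and 192 to 210 in ND, with 6 of 6 SW and 6 of 6 HFD libraries above the ND mean.

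By list, HFD against ND called 0 of 3 receptor constant region genes, 0 of 14 adaptors, 0 of 16 attenuators, 0 of 5 co-stimulation genes and 0 of 10 receptor-induced targets. Of all tested genes 1.62% were called in that comparison. At an unadjusted p under 0.05 edgeR had 0, 1, 5, 0 and 4 genes of these lists, against 14.9% of all tested genes. DESeq2 called 7 of the 68, against 3.44% of all the genes it tested, which were Bcl10, Tec, Cd5, Dok1, Ptpn22, Cd69 and Irf4. The genes called by edgeR were 1 of 5 kinases and 1 of 15 effectors, with 2 and 3 of these lists at an unadjusted p under 0.05. Median log2 fold changes were 0.02 for the constant regions, 0.05 for adaptors, 0.07 each for attenuators, co-stimulation genes, effectors and kinases, and 0.11 for targets. Reads of Trbc1 and Trbc2, which are near-identical, may have been shared between them.

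In SW against ND edgeR called 0 of the 68 higher and 0 lower, against 0.0073% of all genes in each direction, with 3 at an unadjusted p under 0.05 (6.81% of all genes). DESeq2 and limma-voom called 0, against 0.421% and 0.212% of all genes. Beside Bcl10, the genes of smallest p were Cd5, at 0.13 ± 0.04 on the log2 scale, Cd226, a co-stimulatory receptor, at -0.16 ± 0.08, and the adaptor gene Dok1, at -0.19 ± 0.09 (SE), with edgeR adjusted p from 0.446 to 0.733. In SW against HFD edgeR called 0 of the 68 higher, against 0.0584% of all genes, and 0 lower, against 0.0657%, with 7 at an unadjusted p under 0.05 (11.1% of all genes). DESeq2 called 1, Cd69, against 0.871% of all genes, and limma-voom 0, against 0.146%. Ptpn22 was at -0.18 ± 0.06, the co-stimulatory receptor gene Cd27 at 0.19 ± 0.06 and Tec at -0.25 ± 0.08 in that comparison, with edgeR adjusted p of 0.215, 0.215 and 0.259. For any diet difference edgeR called 2 of the 68, Bcl10 and Tec, against 0.898% of all genes.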

How the data were processed

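CD8 T cells of mouse spleen were measured by poly-A RNA-seq in 18 libraries, 6 per diet. Per the submitters' processing notes, fastp was among the tools, with GRCm38 and mm10 as builds. Aligner, counter, strand setting and annotation are not given in the sources read. Per gene, the authors deposited raw counts with no normalization, and FPKM values for the same libraries. FPKM equalled the count times a gene factor and a library factor in the 9534 genes checked, those exceeding 50 counts throughout. Symbols and coordinates are from GENCODE M21, which 52073 of 56748 gene IDs matched.

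Counts of all 18 libraries entered 1 edgeR 4.0.16 quasi-likelihood fit (R 4.3.3; TMM, filterByExpr, robust) with diet as the only factor. All 10 members passed the filter on low counts, among 13690 genes. Benjamini-Hochberg adjustment was over all tested genes, and a gene was called at an adjusted p under 0.05. CPM are TMM-scaled. Intervals are the fold change with its standard error and 95% limits from the same fit. Ratios of FPKM were tested with exact permutation tests (SciPy 1.17.1) adjusted over 12 tests. The fit was tested on simulated counts. Alternatives used DESeq2 1.42.0, limma 3.58.1, other scaling, filters, batch terms and left-out libraries.

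The members and lists were chosen with earlier results of these data known. Named pathway genes were those called, plus the 6 of smallest p in HFD against ND and the 4 of smallest p in each other comparison, and genes of like pattern were the 3 nearest to each of Cd8a, Cd3e and Lck. Of the other cell lists, the CD4 T cell genes summed to 40.5 to 52.3 CPM in SW, 43.1 to 67.3 in HFD and 36.1 to 49.96 in ND, platelet genes to 1.95 to 5.68 CPM and plasma cell genes to 32.9 to 59.2 CPM over all libraries. The labels name no molecular identifiers, and counting errors cover counting only.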

Additional observations from a re-analysis of the deposited data

Results flagged for a closer look

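Of 99 groups of 6 libraries checked for a library far from the others, 5 had one, and chance gives about 1 in 20. Lck had 902 CPM in SW 4, with the next SW library at 1005. Zap70 had 330 CPM in HFD 4, with the next at 292. The summed CD8 T cell markers were at 3963 CPM in ND 6, with the next ND library at 3677. Summed dendritic cell markers were at 135 CPM in HFD 1, with the next HFD library at 89.6, and summed erythroid markers at 83.4 CPM in SW 3, with the next SW library at 48.2.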

How the results depend on the processing

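The count of complex genes called stayed at 0 in HFD against ND, SW against ND and SW against HFD under all alternatives run. The share of all genes called in them ran from 0.0361% to 4.37%, 0% to 0.421% and 0% to 1.01% in the same order. For any diet difference DESeq2 called 1, Cd3e, against 3.38% of the genes it gave an adjusted p. Of the 12 ratio tests none passed under any alternative, pairing by replicate number and leaving out 1 library included. Pairing by number, and replicates 3 to 6 alone, allow few arrangements of the libraries. Under those alternatives a test could hardly pass after adjustment, so nothing is drawn from their failure. The fold change of Cd3e in SW against ND was 0.13 to 0.27 over the alternatives, at adjusted p from 0.0616 to 0.984. Fold changes near 0 changed sign in some alternatives, most often that of Cd247 in HFD against ND, in 21 of 33, and that of Cd3d in SW against ND, in 19 of 33, none of them called. In HFD against ND the count of other pathway genes was 2, and the share of all genes called was 1.62%. It was 7 with DESeq2 (3.44% of all genes), 7 with the replicate block (4.37%) and 7 when the split by replicate number was a factor (3.91%). It was 5 with limma-voom (2.62%), 5 with a minimum of 10 CPM (2.70%), 4 without a filter (0.833%) and 4 within replicates 3 to 6 (1.47%). It was 1 with limma on log2(FPKM + 0.1) (0.840%), 0 within replicates 1 and 2 (0.0361%) and 1 to 5 without 1 library (0.643% to 2.18%). In SW against HFD that count, 0 (0.124%), was 1 with DESeq2 (0.871%), the replicate block (1.01%), the factor (0.847%) or replicates 3 to 6 alone (0.168%), and 0 to 1 without 1 library (0% to 0.319%). Same-numbered libraries had deviations correlated at over 0.1 in 7 of 18 pairs, among them every pair of replicates 1 and 2. In 8 of 18 pairs the first library correlated best with its own number in the other diet. These values do not settle whether the numbers pair the libraries. The labels do not say, so the main fit has no pairing and the replicate block is given as an alternative. Removing a library leaves at least 5 per diet, and replicates 1 and 2 alone leave 2.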
